A study of Mus musculus with 2 samples.

Results

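Matrix proteases and their inhibitors were examined for trimethylation of lysine 27 of histone H3 (H3K27me3) in chondrocytes. The 44 genes were taken by symbol and comprised 21 matrix metalloproteinase (*Mmp*) genes, 19 *Adamts* genes and the 4 *Timp* genes, among 21900 protein-coding genes in all. A gene was counted as marked when the annotation deposited by the authors joined at least 1 H3K27me3 peak to it, which reached 5 kb beyond the gene. Of the 44 genes, 13 were marked (29.5%) and 31 were not, beside 20.7% marked among all protein-coding genes.

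The cells were primary chondrocytes, freed with collagenase from rib cartilage of wild-type CD1 newborns and held overnight in serum-containing medium with no treatment. Chromatin was precipitated with an H3K27me3 antibody, and 1 library of precipitated DNA (17237574 tags after filtering) was compared with 1 library of input DNA (17004082 tags). The sample titled as input carries the antibody tag H3K27me3 and the sample titled as ChIP the tag input, and the titles were followed. Positions are on GRCm38 (mm10), and the gene table used holds no exons, so peaks were placed only relative to gene ends. With 1 library per group, no value had a replicate check and no test between genes or families was made.

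H3K27me3 is written by Polycomb repressive complex 2 and is known as a mark of silenced genes. Cartilage matrix is built of type II collagen and the proteoglycan aggrecan, and its turnover depends on secreted and membrane-bound metalloproteinases. MMPs cleave collagens and many other matrix proteins. Several ADAMTS enzymes cleave aggrecan and related proteoglycans or trim procollagens, and TIMPs bind and block the active enzymes. The collagenase Mmp13 and the aggrecanases Adamts4 and Adamts5 are the enzymes best known for breaking down cartilage.

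The mark was found at part of the proteases and at none of the inhibitors. Of the *Mmp* genes 6 were marked (28.6%, 95% Wilson interval 13.8 to 50%), namely *Mmp9*, *Mmp15*, *Mmp17*, *Mmp24*, *Mmp25* and *Mmp28*. Of the *Adamts* genes 7 were marked (36.8%, 19.1 to 59%), namely *Adamts2*, *Adamts5*, *Adamts8*, *Adamts13*, *Adamts16*, *Adamts18* and *Adamts20*. Of the *Timp* genes 0 of 4 were marked, and the interval reached up to 49%. The 13 marked genes made up 29.5% of the 44 (18.2 to 44.2%), beside 20.7% of all protein-coding genes. By position within 5 kb in the gene table the same 13 were marked, beside 22% of all protein-coding genes. The intervals cover counting error only, and those of the 3 families overlapped each other and the share of all genes.

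The share held by stronger peaks was also counted. A peak of fold enrichment of at least 3.5, which is the ChIP pileup (the mean number of fragments over the peak) set against the input background, was present at 7 of the 44 genes (15.9%, 7.93 to 29.4%) and at 5.35% of all protein-coding genes. These were *Mmp9*, *Mmp24*, *Mmp25*, *Mmp28*, *Adamts8*, *Adamts16* and *Adamts18*. MACS, the peak caller, gave each peak a q-value averaged over its width. Its stated cutoff was 0.05 in broad mode. The averaged values reached 0.0991 over all peaks, 60.8% of which had 0.05 or lower, and the reason was not tested. The same 7 genes had a peak whose averaged q-value did not exceed 0.01, beside 5.90% of all genes. When the limit was 0.05, 10 of the 44 were marked (22.7%), beside 16.4% of all genes, and *Mmp15*, *Adamts2* and *Adamts5* were the genes lost. A peak lay over the gene body in 12 genes (27.3%), beside 14.2% of all genes, and only *Adamts5* was marked through its flank alone.

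**Figure D1:**
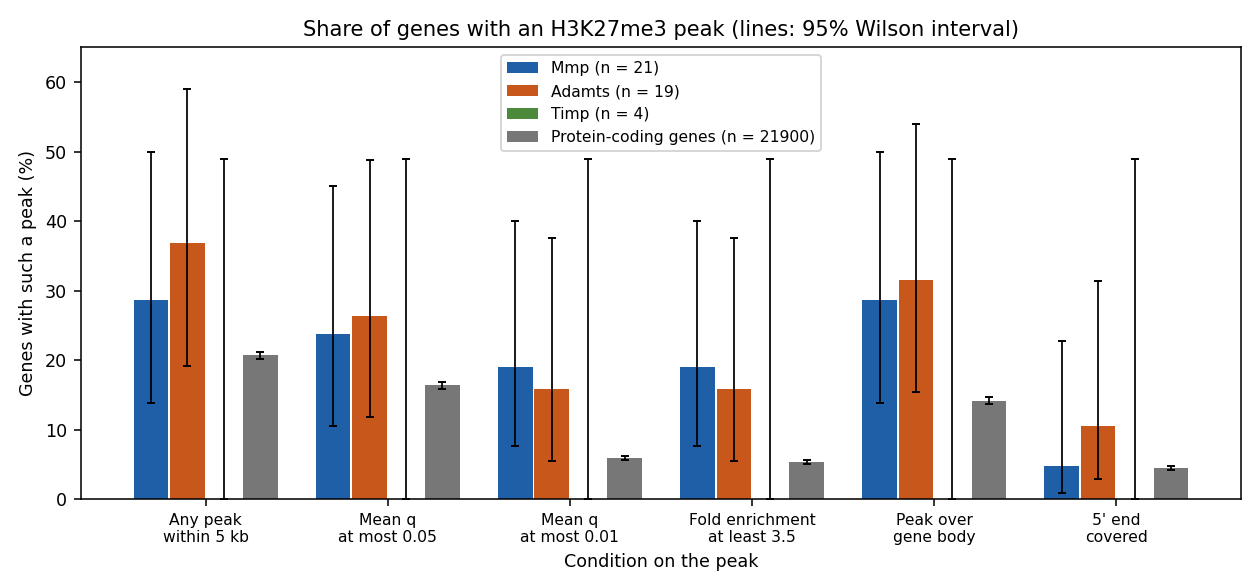
Share of genes with an H3K27me3 peak (%), by condition on the peak, for the Mmp, Adamts and Timp genes and for all protein-coding genes, with 95% Wilson intervals as lines. The Timp bars stand at 0 throughout, and the Mmp and Adamts intervals overlap under every condition.

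The 34 peaks at these genes lay within the range of the whole list, whose fold enrichment ran from 1.42 to 4.79. Their fold enrichment had a median of 3.27 and ran from 2.81 to 3.83, beside a median of 3.16 for all 19359 peaks and 3.18 for the 10238 peaks with a gene symbol. Their median width was 2.25 kb, beside 1.27 kb for all peaks and 1.41 kb for those with a gene symbol. A q-value not above 0.01 was reached by 10 of the 34 peaks (29.4%), beside 11% of all peaks and 13.7% of those with a gene symbol. The 16 peaks at *Mmp* genes covered 69.1 kb in all, with a median fold enrichment of 3.32. Of this width, 16.5 kb lay in 1 peak at *Mmp9* and 11.5 kb in 1 peak at *Mmp28*, both also joined to other genes. The 18 peaks at *Adamts* genes covered 36.9 kb, with a median of 3.24.

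**Figure D2:**
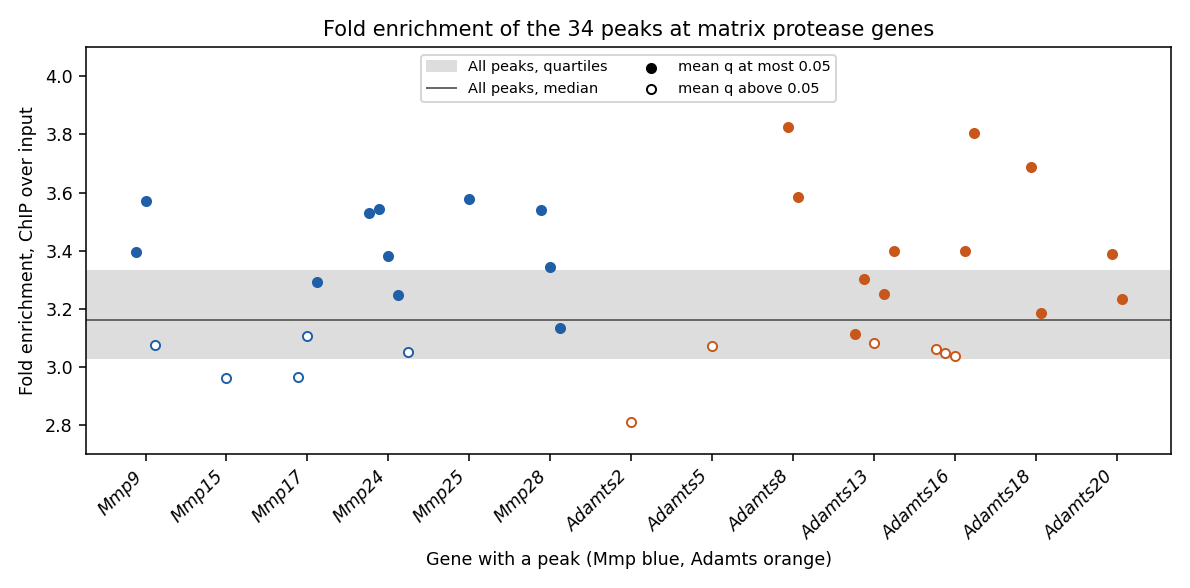
Fold enrichment of ChIP over input (vertical axis, which does not start at 0) for each of the 34 peaks at the 13 marked genes. Genes are ordered by family and by the number in their symbol, and the peaks of a gene by position along the chromosome. Filled points have q-values up to 0.05 (Mmp blue, Adamts orange), the line and the band are the median (3.16) and the quartiles (3.03 and 3.33) of all 19359 peaks, and the peaks of Mmp15 and Adamts2 and 1 peak of Mmp17 lie below the band.

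Of the 3 enzymes best known for cartilage breakdown, *Adamts5* had a peak and *Mmp13* and *Adamts4* had none, beside 20.7% of all protein-coding genes. The interval of 1 in 3 ran from 6.15 to 79.2%. *Mmp13* (chromosome 9, 7272514 to 7283333), whose product cleaves type II collagen, lay 1.61 Mb from the nearest peak. *Adamts4* (chromosome 1, 171250129 to 171262267) lay 33.6 kb from a peak of 600 bp with a q-value of 0.0988 that was joined to *Nr1i3* and *Tomm40l*. *Adamts5* (chromosome 16, 85858171 to 85901125, minus strand) had 1 upstream peak of 2.41 kb (85903616 to 85906021), 2491 bp from its start. The peak had a pileup of 10.78 fragments and was 3.07-fold enriched (q-value 0.0531), and 33.2% of all peaks had a lower fold enrichment. Of all protein-coding genes, 16.4% had a peak with a q-value of 0.05 or lower and 14.2% had one over the gene body. *Adamts5* was not counted under either condition. *Adamts1*, its neighbour and another proteoglycan-cleaving enzyme, lay 101 kb from the same peak.

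Among the *Mmp* genes, membrane-type enzymes, which stay anchored at the cell surface, held 4 of the 6 marked members. Of the 6 membrane-type genes, *Mmp15*, *Mmp17*, *Mmp24* and *Mmp25* were marked, whereas *Mmp14* and *Mmp16* were not, beside 20.7% of all protein-coding genes. With q-values up to 0.05, *Mmp15* dropped out and 3 of the 6 were left, beside 16.4% of all genes. *Mmp24* (chromosome 2, 155775343 to 155818366, plus strand) had 5 peaks with a summed width of 15.8 kb. The first, of 5.21 kb (155769874 to 155775082), ended 261 bp before the gene and had a fold enrichment of 3.53. The next 4 lay inside the gene with fold enrichments of 3.54, 3.38, 3.25 and 3.05, and the last had a q-value of 0.0683. The 2 peaks next to the start of *Mmp24* had its highest fold enrichments, and the third had its highest pileup (13.69 fragments).

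*Mmp25* (chromosome 17, 23629459 to 23645269, minus strand), known from leukocytes, was covered at its start by 1 peak of 5.11 kb (23643919 to 23649029). It was 3.58-fold enriched (q-value 0.00598). *Mmp17* (chromosome 5, 129584170 to 129608875, plus strand), anchored by a lipid like Mmp25, had a peak of 5.19 kb inside the gene (129585157 to 129590350, 3.29-fold, q-value 0.0198). Its 2 upstream peaks, of 518 and 294 bp, had q-values of 0.0925 and 0.0574. *Mmp15* (chromosome 8, 95352269 to 95374293, plus strand) had 1 peak of 2.20 kb (95353402 to 95355598, 2.96-fold, q-value 0.0852), and 10.6% of all peaks had a lower fold enrichment. *Mmp14*, the activator of Mmp2 at the cell surface, lay 147 kb from the nearest peak, and *Mmp16* lay 1.95 Mb away.

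Of the 2 gelatinases, *Mmp9* was marked and *Mmp2* was not, beside 20.7% of all protein-coding genes. *Mmp9* (chromosome 2, 164940781 to 164955850, plus strand), gelatinase B, had the largest summed peak width of the 44 genes, 23.9 kb in 3 peaks. A peak of 6.92 kb (164933286 to 164940204, 3.39-fold) ended 577 bp before the gene, and a peak of 16.5 kb (164941481 to 164957966, 3.57-fold, q-value 0.00692) covered the rest of it from 700 bp after its start. The latter was also joined to the neighbouring gene *Slc12a5*, a neuronal chloride transporter, so the peak does not belong to *Mmp9* alone. *Mmp2* (chromosome 8, 92827290 to 92853421), gelatinase A, had no peak, and the nearest was a peak of 294 bp at 15.1 kb.

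*Mmp28* (chromosome 11, 83440769 to 83463071, minus strand), or epilysin, was marked at its 3′ end. A peak 11.5 kb wide (83427895 to 83439441, 3.54-fold) lay 1328 bp downstream of the gene, and peaks 2.26 and 2.25 kb wide (3.35-fold and 3.13-fold) lay inside it. The closest of them was 15438 bp from its start. All 3 were shared with *1700020L24Rik*, and the downstream peak also with *Gas2l2*, so that neighbouring genes cannot be told apart from *Mmp28* as the marked gene. Among the 2 collagenases and 3 stromelysins none was marked, beside 20.7% of all protein-coding genes, and 4 of these 5 (*Mmp8*, *Mmp13*, *Mmp3* and *Mmp10*) share 1 cluster on chromosome 9. Of the 8 remaining *Mmp* genes *Mmp28* was the marked one.

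Of the 7 *Adamts* genes whose products cleave aggrecan, versican and related proteoglycans, *Adamts5*, *Adamts8* and *Adamts20* were marked, beside 20.7% of all protein-coding genes. With q-values up to 0.05, *Adamts5* dropped out, beside 16.4% of all genes. *Adamts8* (chromosome 9, 30942563 to 30963838, plus strand) had the peak of highest fold enrichment among the 34. A peak of 4.60 kb (30941977 to 30946577, 3.58-fold, q-value 0.00538) covered its start. A second peak of 1.62 kb (30937466 to 30939084), 3479 bp upstream, had a pileup of 14.50 fragments and was 3.83-fold enriched (q-value 0.00136), above 99.0% of all peaks in both pileup and fold enrichment. Its neighbour *Adamts15* lay on the other side, 15.0 kb from this peak, and was not marked.

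*Adamts20* (chromosome 15, 94270164 to 94465418, minus strand), known for its role in pigment cells, had 2 short peaks, of 495 bp (3.39-fold) and 626 bp (3.23-fold). In the deposited record they lay 62393 and 58841 bp inside the gene. The RefSeq promoter entry of the gene (94404301 to 94404600) instead falls between both peaks, 1276 bp from the nearer one. The deposited start and the one of the gene table differed by 33344 bp, so the place of these peaks relative to the start depends on the gene record.

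Among the procollagen-processing enzymes, *Adamts2* (chromosome 11, 50602085 to 50807573, plus strand), whose loss causes fragile skin, was marked, and *Adamts3* and *Adamts14* were not. This was 1 of 3 genes, beside 20.7% of all protein-coding genes. With q-values up to 0.05, *Adamts2* (q-value 0.0669) dropped out, beside 16.4% of all genes. Its peak of 2.53 kb (50603383 to 50605910) had a fold enrichment of 2.81, the lowest of the 34 peaks, although the pileup of 12.52 exceeded that of 89.0% of all peaks. Only 0.542% of all peaks had a lower fold enrichment. *Adamts7* and *Adamts12*, which cleave cartilage oligomeric matrix protein, lay 41.1 and 28.5 kb from a peak.

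The remaining marked members were *Adamts13*, *Adamts16* and *Adamts18*. *Adamts16* (chromosome 13, 70727803 to 70841811, minus strand) had 5 peaks with a sum of 9.50 kb. The peak over its start was 3.38 kb wide (70839691 to 70843075, 3.40-fold, q-value 0.0147), and the peak 2482 bp upstream reached 3.81-fold with a q-value of 0.00311. The 3 peaks inside the gene had q-values from 0.0633 to 0.0737. *Adamts18* (chromosome 8, 113697127 to 113848615, minus strand), which is similar in sequence to Adamts16, had a peak of 4.53 kb inside the gene (113843287 to 113847814, 3.69-fold, q-value 0.0033) and one of 2.81 kb upstream (113849317 to 113852130, 3.19-fold, q-value 0.0316). *Adamts13* (chromosome 2, 26973417 to 27009628, plus strand), which cleaves von Willebrand factor in blood, had 5 peaks of 0.364 to 2.72 kb, and the one farthest upstream was also joined to *Rexo4*. Their fold enrichments ran from 3.08 to 3.40, and none reached a q-value of 0.01.

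**Figure D3:**
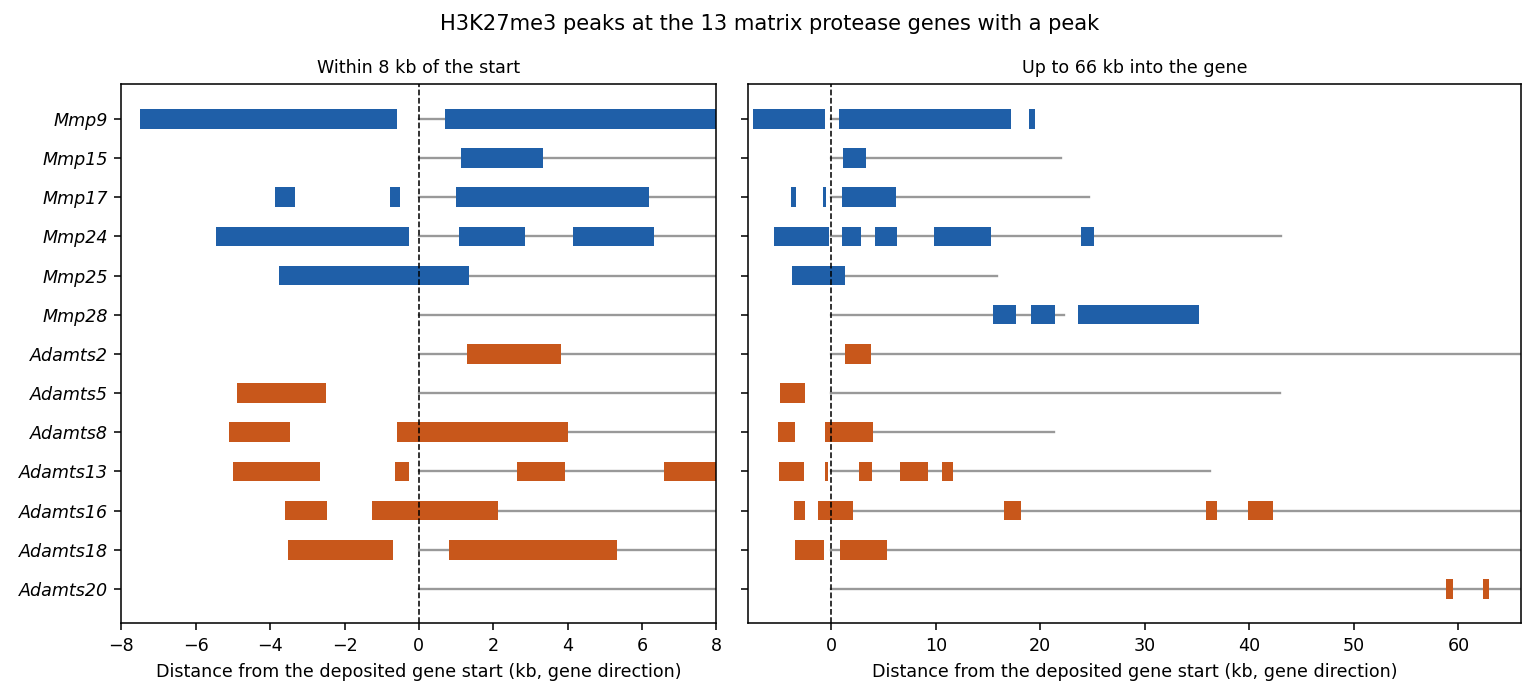
H3K27me3 peaks (bars, Mmp blue and Adamts orange) at the 13 marked genes, by distance from the deposited gene start in kb along the direction of the gene, with the gene body as a grey line. The left panel is cut at 8 kb on either side and the right panel at 66 kb, and the start (dashed line) is under a peak in Mmp25, Adamts8 and Adamts16 and in a gap between peaks in Mmp9, Mmp17, Mmp24, Adamts13 and Adamts18.

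The start of the gene was covered by a peak in *Mmp25*, *Adamts8* and *Adamts16*, or 3 of the 44 genes (6.82%), beside 4.45% of all protein-coding genes. These 3 were 23.1% of the 13 marked genes, beside 21.5% of all marked protein-coding genes. In 5 of the 13 marked genes (38.5%), the start lay in a gap with a peak within 5 kb on both sides, beside 17.5% of all marked protein-coding genes. This class was defined after the peak positions had been seen and was not tested. The gap was 1276 bp at *Mmp9*, 1331 bp at *Mmp24*, 1481 bp at *Mmp17*, 1502 bp at *Adamts18* and 2908 bp at *Adamts13*. The smallest gap between any 2 peaks of the list was 1177 bp, so narrower interruptions of the mark were not resolved. With the start of the gene table in place of the deposited one, which moved it by 728 bp, *Adamts18* counted as covered.

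The sequences around the start show what lay under, between or far from the peaks. The promoter table of RefSeq (GRCm38.p6, 250 bases before to 50 after the start) had entries for 30 of the 44 genes and for 8 of the 13 marked ones. Since fewer than 80% had an entry, no comparison of base composition between marked and unmarked genes was made. Of the 8 marked genes with an entry, the window overlapped a peak only in *Mmp25* (chr17:23645220-23645519, minus strand), where it lay wholly inside. In *Mmp24* (chr2:155775092-155775391, plus strand), *Adamts18* (chr8:113848790-113849089, minus strand) and *Adamts13* (chr2:26973166-26973465, plus strand) it lay in the gap, 10, 228 and 17 bp from the nearest peak. *Mmp13* (chr9:7272264-7272563, plus strand) and *Timp3* (chr10:86300162-86300461, plus strand) are shown as genes without a peak. *Mmp24*, *Adamts18*, *Adamts13* and *Timp3* were chosen for printing after their values were seen. Capitals mark the dinucleotide CG, which reads the same on both strands.
Mmp25: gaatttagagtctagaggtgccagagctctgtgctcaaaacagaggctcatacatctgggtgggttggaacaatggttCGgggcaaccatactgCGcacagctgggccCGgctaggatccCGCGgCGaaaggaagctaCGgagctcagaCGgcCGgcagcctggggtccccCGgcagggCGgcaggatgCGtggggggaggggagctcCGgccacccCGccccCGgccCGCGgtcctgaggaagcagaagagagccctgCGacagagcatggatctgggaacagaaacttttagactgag
Mmp24: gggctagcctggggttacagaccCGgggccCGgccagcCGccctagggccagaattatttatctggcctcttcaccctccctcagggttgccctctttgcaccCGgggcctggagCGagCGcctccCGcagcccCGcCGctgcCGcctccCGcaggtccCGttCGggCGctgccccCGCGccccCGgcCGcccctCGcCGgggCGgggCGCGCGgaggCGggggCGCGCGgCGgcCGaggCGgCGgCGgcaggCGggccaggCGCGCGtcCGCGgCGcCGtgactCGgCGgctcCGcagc
Adamts18: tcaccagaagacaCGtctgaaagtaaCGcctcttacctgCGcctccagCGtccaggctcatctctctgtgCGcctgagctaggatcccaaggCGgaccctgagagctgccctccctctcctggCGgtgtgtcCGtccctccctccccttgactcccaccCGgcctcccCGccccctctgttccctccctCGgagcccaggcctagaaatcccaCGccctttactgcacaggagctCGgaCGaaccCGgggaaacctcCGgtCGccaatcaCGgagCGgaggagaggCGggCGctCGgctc
Adamts13: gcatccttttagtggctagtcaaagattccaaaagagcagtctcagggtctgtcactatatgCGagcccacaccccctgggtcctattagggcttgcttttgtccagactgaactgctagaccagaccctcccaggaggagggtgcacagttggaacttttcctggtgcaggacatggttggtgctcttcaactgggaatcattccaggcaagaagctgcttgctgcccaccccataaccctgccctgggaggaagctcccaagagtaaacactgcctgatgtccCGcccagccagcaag
Mmp13: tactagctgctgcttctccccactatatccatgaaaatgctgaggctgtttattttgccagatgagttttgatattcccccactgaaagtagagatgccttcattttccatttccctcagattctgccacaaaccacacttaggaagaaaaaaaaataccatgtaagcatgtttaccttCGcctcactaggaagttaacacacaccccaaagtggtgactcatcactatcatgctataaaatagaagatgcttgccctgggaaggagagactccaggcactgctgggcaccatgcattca
Timp3: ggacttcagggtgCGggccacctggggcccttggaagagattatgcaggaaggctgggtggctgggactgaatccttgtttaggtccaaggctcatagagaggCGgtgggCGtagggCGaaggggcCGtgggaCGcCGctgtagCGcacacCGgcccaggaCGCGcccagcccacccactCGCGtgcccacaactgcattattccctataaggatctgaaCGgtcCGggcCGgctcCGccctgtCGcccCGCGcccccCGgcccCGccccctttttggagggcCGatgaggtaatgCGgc

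The 6 windows differed widely in CG. *Mmp24* held 44, more than or as many as 98.1% of all 32851 promoter entries, and *Timp3*, without a peak, held 24. *Adamts18* held 22 and *Mmp25* held 18. *Adamts13* and *Mmp13* held 2 and 1, below the median of 7 over all entries, of which 94.6% held at least 1. Of the marked genes whose windows are not printed, *Adamts2* and *Adamts20* held 41 each, *Mmp15* held 22 and *Mmp28* held 20.

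The 31 genes without a peak lay 12.1 to 8921 kb from the nearest one, with a median of 141 kb. The median was 117 kb for the 17096 protein-coding genes without a peak on chromosomes that had any. No gene lay between 5 and 12.1 kb, and the nearest were *Adamts10* (12.1 kb), *Adamts15* (15.0 kb) and *Mmp2* (15.1 kb). Of the *Mmp* genes outside the chromosome 9 cluster, *Mmp11*, *Mmp23*, *Mmp21* and *Mmp19* lay 21.2, 31.2, 51.7 and 128 kb from a peak. Of the other unmarked *Adamts* genes, *Adamts9*, *Adamts14*, *Adamts3*, *Adamts6* and *Adamts17* lay 22.7, 131, 197, 356 and 411 kb away. The lowest pileup of any peak was 9.86 fragments. A weaker mark at these genes may have been missed, and what could be detected at this depth was not tested.

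Of the 15 unmarked *Mmp* genes, 8 sit in 1 cluster on chromosome 9. The genes *Mmp13*, *Mmp12*, *Mmp3*, *Mmp10*, *Mmp8*, *Mmp27*, *Mmp20* and *Mmp7* lie within 427 kb (7272514 to 7699585), together with *Mmp1b* and *Mmp1a*, which were not among the 44. There were 0 peaks inside the cluster and 0 between it and the start of the chromosome. The first peak of the chromosome, of 1833 bp and joined to *Pgr*, began at 8897608, and 31 protein-coding genes started before it. These 8 genes share 1 locus and are not independent of each other.

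Of the 21631 protein-coding genes on chromosomes with at least 1 peak, 7.79% lay 1 Mb or more from any peak. Of the 44 genes, 11 did so (25%). They were the 8 genes of the cluster, *Mmp16*, *Adamts19* (1.08 Mb) and *Timp1* (8.92 Mb), which lies on the X chromosome. *Timp2*, *Timp3* and *Timp4* lay 141, 136 and 32.5 kb from a peak. For *Timp3* and *Timp4* this nearest peak was joined to *Syn3* and *Syn2*, the synapsin genes in which these inhibitors are known to nest.

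**Figure D4:**
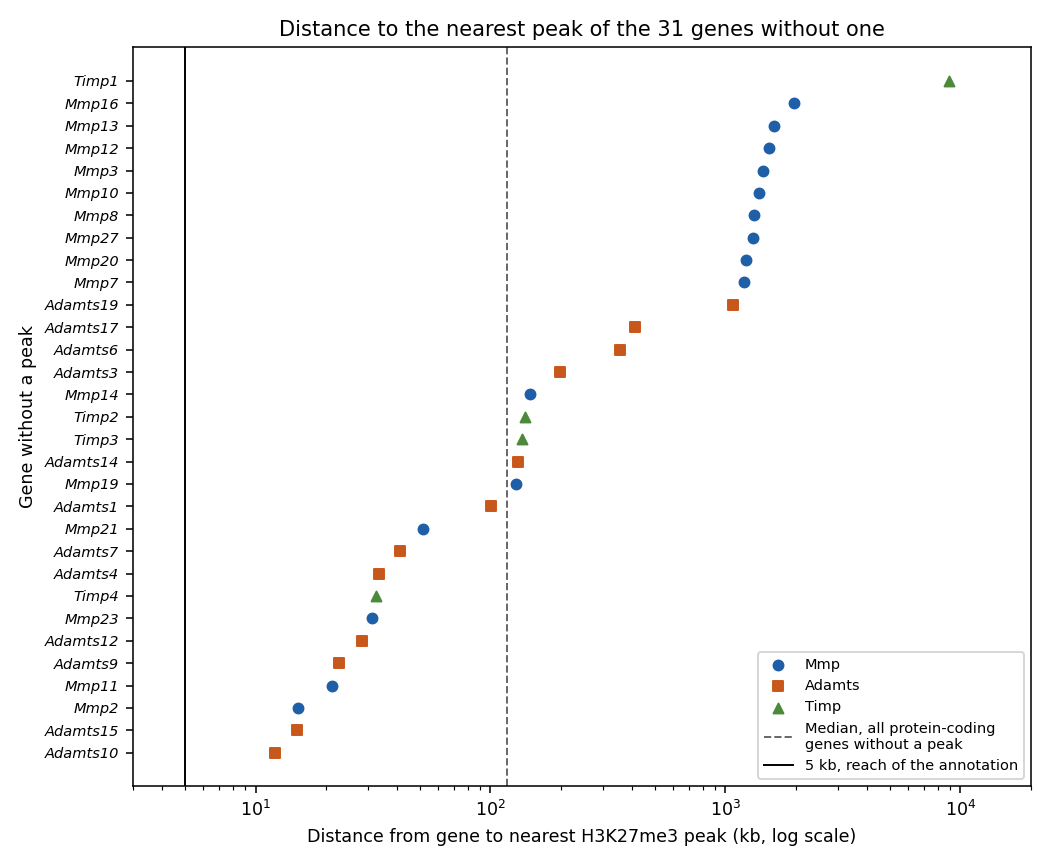
Distance from each of the 31 genes without a peak to the nearest H3K27me3 peak (kb, log scale), by family. The dashed line is the median of protein-coding genes without a peak on chromosomes that had any (117 kb). The solid line is the 5 kb reach of the annotation, and the 8 genes of the chromosome 9 cluster stand together between 1198 and 1614 kb.

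Gene length differed between the families. The median length was 114 kb for *Adamts* genes and 10.9 kb for *Mmp* genes, beside 17.1 kb for all protein-coding genes. Marked genes had a median of 36.3 kb and unmarked ones 16.1 kb, and over all protein-coding genes these values were 22.8 and 16.1 kb. Within the *Adamts* family the marked genes had the same median as the family, 114 kb, whereas the marked *Mmp* genes had a median of 22.1 kb. Of the 11 genes of 100 kb or more, 10 were *Adamts* genes and 4 were marked, beside 34% of all such genes. Of the 9 genes from 30 to 100 kb 3 were marked, beside 22.3% of all such genes, and of the 15 from 10 to 30 kb 6 were marked, beside 19%. Of the 9 genes under 10 kb none was marked, beside 17% of all such genes. The part of length in the counts was not tested.

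Other genes of matrix proteolysis were counted from a list of 45. Of these, 9 were marked (20%, 10.9 to 33.8%), close to the 20.7% of all protein-coding genes. Adam-type and ADAMTS-like genes among them were *Adam12* (5 peaks, at most 3.42-fold), *Adam33* (4 peaks, 3.73-fold), *Adamtsl1* (2 peaks, 3.80-fold) and *Adamtsl5* (2 peaks with 16.1 kb in sum, 3.76-fold). *Spock1*, a matrix proteoglycan, had 9 peaks of up to 3.87-fold, and *Tll2*, a procollagen C-proteinase relative of *Bmp1*, had 20 peaks with 28.2 kb in sum. The others were *Lrp1* (3.38-fold), a receptor that clears proteases, and *Plaur* (3.08-fold) and *Plg* (3.05-fold) of the plasminogen system. The start was covered in *Adam33* and *Adamtsl5*. None of the 5 cathepsin, 3 serpin and 2 hyaluronidase genes of the list was marked, nor was *Reck*, a membrane-bound inhibitor of MMPs, and these groups are small beside a share of 20.7% over all genes.

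The labelled cell type could not be checked by expression in a peak list. Of 8 chondrocyte genes (*Col2a1*, *Acan*, *Sox9*, *Col9a1*, *Col11a1*, *Comp*, *Matn1* and *Matn3*) 0 had a peak, beside 20.7% of all protein-coding genes, and so few genes do not check the label. All 3 neural genes (*Pax6*, *Neurog1* and *Neurog2*), 2 of 3 muscle genes (*Myod1* and *Myf5*) and 1 of 3 blood genes (*Tal1*) had one.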

How the data were processed

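The data were 1 H3K27me3 ChIP library and 1 input library of wild-type rib chondrocytes. The submitters' processing notes name CASAVA 1.8.4, Bowtie2, MACS2 and the build mm10. Per the file headers, peaks were called by MACS 2.1.0.20140616 in broad mode with a q-value cutoff of 0.05, on trimmed reads without duplicates. For each peak the authors deposited the pileup, a coverage signal, the fold enrichment, a ratio to the input background after adding 1 to both, and p-values and q-values as −log10 values averaged over the peak. 

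A deposited annotation linked peaks to Ensembl genes up to 5 kb away, by a tool not given in the sources used here. Peaks were identical in both tables (19359 of 19359). Symbols were split where joined. Of 4987 symbols, 4781 matched the RefSeq gene table of GRCm38.p6 directly and 148 by an older name. Of marked protein-coding genes, 97.0% had a start or end within 1 kb in both sources. Distances of unmarked genes to the nearest peak, their positions and all gene lengths used the gene table. Positions of marked genes used the deposited records, except where the gene table or the promoter table is named. Values were computed in Python 3.11.15 with pandas 2.3.3, scipy 1.17.1 and matplotlib 3.10.9, and the distance function was tested on simulated data. The members and lists were chosen with earlier results of these data known. All marked members and all marked genes of the other list are named. By the rule, promoters of members with a covered start and of *Mmp13*, *Adamts4* and *Adamts5* were to be printed. Only *Mmp25* and *Mmp13* had entries, and the other 4 were added after their values were seen.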

Additional observations from a re-analysis of the deposited data

How the results depend on the processing

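Counts of genes were taken as the same when within 1.5 times, and the share of all protein-coding genes when within its 95% Wilson interval (20.2 to 21.2%). By this, 34 of 58 recomputed values were the same and 24 moved. No paired analysis was possible because there was 1 library per group, and leaving out a replicate was not possible for the same reason. Fewer peaks must give fewer genes, which shows the cause of most moves. The number of marked genes among the 44 was 7 when q-values above 0.01 were dropped, 7 with a fold enrichment of at least 3.5 and 3 with the start covered. For *Adamts* genes these counts were 3, 3 and 2, and with the start covered 1 *Mmp* gene was left. Of *Mmp13*, *Adamts4* and *Adamts5*, 0 were marked under these conditions, when q-values above 0.05 were dropped, and under overlap with the gene body. The other list held 4, 4 and 2 marked genes, and 14 with a reach of 20 kb in the gene table. The share of all protein-coding genes was 16.4% and 5.90% for q-value limits of 0.05 and 0.01, 5.35% for fold enrichment, 17% for a width of at least 1 kb, 14.2% for overlap with the gene body, 4.45% for a covered start, and 22% and 32.9% within 5 and 20 kb in the gene table. Counting the chromosome 9 cluster as 1 locus and the start by the gene table were added after seeing the data. The former gave 6 of 14 *Mmp* loci (42.9%), a share that merging genes without a peak had to raise. The promoter comparison and its alternatives were not run, since 68.2% of the genes had an entry. The *Timp* count of 0 could change only within 5 and 20 kb in the gene table, where it was also 0, since the other 6 alternatives only remove peaks, and 4 genes allow a share of up to 49%. The lowest pileup of any peak was 9.86 fragments, and whether weaker marks were missed at this depth was not tested.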
